A study of Homo sapiens with 2 samples.

Results

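The Notch receptors NOTCH1, NOTCH2 and NOTCH3, the ligands JAG1, JAG2 and DLL1, and the target genes HES1, HES4, HEY1 and NRARP were followed as 10 genes, chosen by symbol among the 36601 genes of the deposited matrices. RWPE1 is an immortalized line of normal prostate epithelium, grown in keratinocyte serum-free medium. Single-cell RNA was sequenced from RWPE1, which the labels describe as a vector only control and the paper as parental cells, and from RWPE-ERG-mAKT, the same line carrying ERG and mAKT. ERG, an ETS-family transcription factor, was expressed here from a retroviral vector with the HNRNPA2B1 promoter, and mAKT was AKT1 with a myristoyl anchor that keeps it active at the membrane, from a second retroviral vector. Each condition was 1 library, so there was no replicate and no test between conditions, and all 95% intervals cover counting error only. With both transgenes in 1 library, the parts of ERG and of mAKT cannot be told apart.

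Cells with over 2500 detected genes and under 7.5% mitochondrial counts were kept, 9967 of 12504 barcodes in RWPE1 and 14140 of 17355 in RWPE-ERG-mAKT, from a stated input of 10000 cells each. They held 192789925 and 225121037 unique molecular identifiers (UMIs, each standing for 1 captured RNA molecule), and levels are counts per 1000000 UMIs (CPM). Median depth was 16972 and 13601 UMIs per cell, and the median mitochondrial share was 5.44% and 2.73%. The libraries shared 55 barcodes, 37 of them among kept cells. ERG itself gave 278 UMIs in the control library and 4680 in the other. AKT1 was at 22.0 and 19.1 CPM (log2 ratio -0.20, -0.26 to -0.14), so these counts do not show mAKT, and whether 3' tags of the vector RNA would be counted as AKT1 is not given in the sources used here. All 12 epithelial markers lay above 1 CPM in both libraries, from 80.1 to 2193 CPM and from 56.5 to 7036 CPM. All 6 endothelial markers and 7 of 8 immune markers lay under 1 CPM in both, with CD68 as the exception, while of 7 fibroblast markers DCN was at 0.23 and 23.1 CPM, COL1A1 at 1.60 and 2.89 CPM and ACTA2 at 1.24 and 2.83 CPM, and 4 lay under 1 CPM in RWPE-ERG-mAKT.

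Notch receptors are membrane proteins that are cleaved after binding a ligand on a neighbouring cell. The freed intracellular part joins the DNA-binding protein RBPJ and MAML coactivators in the nucleus and switches on HES and HEY genes, which code for repressors. In the prostate, as in the skin, the pathway is known for its part in the choice between basal and luminal or other differentiated fates, and a ligand in the same cell as a receptor can also block it.

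The promoters of the target genes are shown because they are where this signal is read. They run from 250 bases before to 50 bases after the start of transcription, on the coding strand, from RefSeq on GRCh38.p14, and capitals mark TGGGAA, the core of the RBPJ site. The HES1 promoter lies at chr3:194135898-194136197 on the plus strand, that of HES4 at chr1:1000048-1000347 on the minus strand, and that of NRARP at chr9:137302222-137302521 on the minus strand.
HES1: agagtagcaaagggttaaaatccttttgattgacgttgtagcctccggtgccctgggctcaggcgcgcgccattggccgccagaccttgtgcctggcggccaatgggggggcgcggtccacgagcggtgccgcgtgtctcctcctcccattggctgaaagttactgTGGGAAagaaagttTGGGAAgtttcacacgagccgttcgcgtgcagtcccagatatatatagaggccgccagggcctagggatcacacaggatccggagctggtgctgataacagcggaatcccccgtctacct
HES4: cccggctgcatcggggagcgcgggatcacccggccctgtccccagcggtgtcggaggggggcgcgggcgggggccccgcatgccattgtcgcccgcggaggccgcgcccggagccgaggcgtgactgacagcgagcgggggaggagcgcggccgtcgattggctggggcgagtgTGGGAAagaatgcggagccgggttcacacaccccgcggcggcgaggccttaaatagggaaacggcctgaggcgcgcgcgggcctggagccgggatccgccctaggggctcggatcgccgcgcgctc
NRARP: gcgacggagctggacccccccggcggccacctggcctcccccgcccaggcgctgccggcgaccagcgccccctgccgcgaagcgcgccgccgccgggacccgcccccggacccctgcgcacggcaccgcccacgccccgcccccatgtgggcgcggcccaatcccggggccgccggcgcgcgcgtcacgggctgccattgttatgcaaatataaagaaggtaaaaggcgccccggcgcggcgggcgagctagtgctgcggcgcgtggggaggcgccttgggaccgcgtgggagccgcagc
HES1 held the core at positions -84 and -70 from the start, and HES4 at position -76, all on the coding strand. Only the exact word TGGGAA was searched, so other forms of the RBPJ site, on either strand, are not covered.

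Of the 10 genes, 8 had an entry that was searched, on both strands. TGGGAA was absent from the windows of NRARP, NOTCH1, NOTCH2, NOTCH3, JAG1 and JAG2, and 24.0% of 35116 RefSeq promoters of this length held it. The N box CACNAG, bound by HES repressors, was found in 5 of the 8 windows, and 38.0% of all promoters held it. It occurred 4 times in HES1, where it overlapped no RBPJ core, 2 times in NOTCH1 and 1 time each in NOTCH2, NOTCH3 and NRARP. The E box CACGTG (7.26% of all promoters) and the ETS word CCGGAAGT (4.14%) were found in none of the 8 windows. Looser forms of the ETS site were not searched, so this does not show that ETS sites were absent. A match of letters is a description and shows no binding.

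By GENCODE 29 on GRCh38, the receptor genes lie at chr9:136494433-136545786 (NOTCH1), chr1:119911553-120069626 (NOTCH2) and chr19:15159038-15200981 (NOTCH3). The ligand genes lie at chr20:10637684-10673999 (JAG1), chr14:105140981-105168824 (JAG2) and chr6:170282206-170306565 (DLL1). All 6 are on the minus strand. NOTCH1, JAG1 and DLL1 overlap a gene on the other strand (AL592301.1, AL050403.2 and FAM120B), JAG2 and DLL1, microRNA genes aside, one on their own strand (AL512356.1 and AL078605.1), and how reads there were assigned is not given in the sources used here.

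NOTCH1, NOTCH3, JAG2 and DLL1 were lower in RWPE-ERG-mAKT, whereas HES1 and HES4 were higher. With 1.5-fold as the limit and at least 1 CPM in a library, 9 of the 10 genes were measured, of which 2 were higher and 4 lower. Among all 15003 genes measured, 19.9% were over 1.5-fold higher and 30.5% over 1.5-fold lower, which 2 and 4 of 9 genes were not far from. At 2-fold, 0 of the genes were higher and 1, DLL1, was lower, against 10.3% and 17.4% of all genes. The median log2 ratio, with 1 CPM added, was -0.31 over the 9 genes and -0.12 over all genes.

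**Figure D1:**
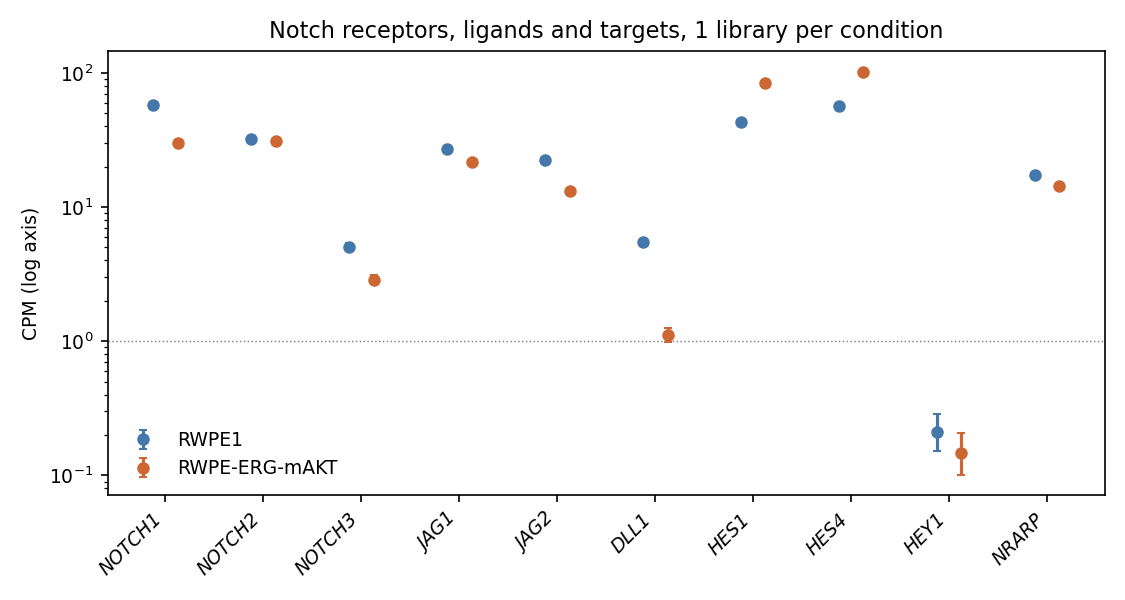
Level of each of the 10 genes in CPM (log axis) in RWPE1 (blue) and RWPE-ERG-mAKT (orange), 1 library each, with exact Poisson 95% intervals that are mostly smaller than the points. HES1 and HES4 lie higher in RWPE-ERG-mAKT, NOTCH1, NOTCH3, JAG2 and DLL1 lie lower, and HEY1 lies under the dotted line at 1 CPM.

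NOTCH1, the receptor known for driving differentiation in stratified epithelia, gave 11197 UMIs (58.1 CPM) in RWPE1 and 6769 (30.1 CPM) with ERG and mAKT. As the log2 ratio of the ERG-mAKT library over the control, this was -0.95 (95% interval -0.99 to -0.91). NOTCH1 was thus the receptor with the highest CPM in RWPE1, and in RWPE-ERG-mAKT it stood level with NOTCH2. NOTCH2, the widely expressed second receptor, was at 32.2 CPM (6211 UMIs) in RWPE1 and 31.3 CPM (7045 UMIs) with ERG and mAKT, a log2 ratio of -0.04 (-0.09 to 0.01) whose sign turned to 0.10 when libraries were scaled by the median of ratios. NOTCH2 shares sequence with near-identical NOTCH2NL copies, between which reads can be split, and these were lower: NOTCH2NLC was at 4.48 and 2.28 CPM and NOTCH2NLA at 2.22 and 1.20 CPM. NOTCH3, which has a short intracellular tail, was the least abundant of the 3, at 5.07 CPM (978 UMIs) and 2.88 CPM (649 UMIs), a log2 ratio of -0.82 (-0.96 to -0.67). NOTCH4 stayed under 1 CPM in both libraries.

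Among the ligands, DLL1 differed most and JAG1 least. DLL1, a Delta-type ligand, gave 1052 UMIs (5.46 CPM) in RWPE1 and 251 UMIs (1.11 CPM) with ERG and mAKT, a log2 ratio of -2.29 (-2.495 to -2.09). JAG2, a Jagged-type ligand of basal epithelia, was at 22.3 CPM (4298 UMIs) and 13.2 CPM (2979 UMIs), a log2 ratio of -0.75 (-0.82 to -0.68). JAG1, the other Jagged ligand, was the most abundant of the 3 in both, at 27.1 CPM (5221 UMIs) and 21.7 CPM (4890 UMIs), and its log2 ratio of -0.32 (-0.37 to -0.26) stayed within 1.5-fold.

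The targets did not move as 1 group. HES1, the repressor most often used as a readout of the pathway, gave 8328 UMIs (43.2 CPM) in RWPE1 and 18770 UMIs (83.4 CPM) with ERG and mAKT, a log2 ratio of 0.95 (0.91 to 0.99). HES4, a close relative of HES1 found in humans but not in mice, was at 57.0 CPM (10982 UMIs) and 102 CPM (22976 UMIs), a log2 ratio of 0.84 (0.81 to 0.87). NRARP, which binds the Notch and RBPJ complex and dampens it, was instead slightly lower in RWPE-ERG-mAKT, at 17.4 CPM (3345 UMIs) and 14.5 CPM (3254 UMIs), a log2 ratio of -0.26 (-0.33 to -0.19). HEY1, the target of the HEY family, gave 41 and 33 UMIs (0.21 and 0.15 CPM), and its interval of -1.24 to 0.16 around -0.54 does not settle a direction at this depth.

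Other HES genes went further in both directions. HES5, a target in neural tissue, gave 457 UMIs in RWPE1 and 8 in the other library, at 2.37 and 0.0355 CPM (log2 ratio -6.06, -7.28 to -5.07). HES2 was also lower, at 43.0 and 9.61 CPM (log2 ratio -2.16, -2.23 to -2.09). HES6, a HES relative that counteracts HES1, was higher, at 1.31 and 2.87 CPM (log2 ratio 1.14, 0.92 to 1.35), and HES7, the clock gene of somites, was at 30.6 and 33.8 CPM (log2 ratio 0.15). HES1 and HES4 therefore did not stand for the family: of 7 measured genes of the target list, which also holds NRARP, 3 were over 1.5-fold higher and 2 lower.

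Over 61 listed pathway genes, 53 reached 1 CPM, of which 9 were over 1.5-fold higher and 22 lower (19.9% and 30.5% of all genes). The 51 genes beside the 10 had 44 measured, 7 higher and 18 lower, with a median log2 ratio of -0.34. By role, the counts were 0 higher and 2 lower of 3 receptors, 1 and 3 of 5 ligands, 1 and 2 of 9 genes of receptor cleavage, 0 and 3 of 4 of receptor glycosylation, 3 and 2 of 13 of the nuclear complex and its corepressors, and 1 and 8 of 12 of endocytosis, ubiquitin ligases and turnover. All genes leaned lower too (19.9% higher and 30.5% lower), and several groups were small. These counts are thus not read as a result about a role.

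Ligand-like genes beside the 3 went both ways. DLL3, a divergent Delta protein that mostly acts inside the cell, was at 4.43 and 15.3 CPM (log2 ratio 1.78, 1.67 to 1.89). DLK2, an inhibitory non-canonical ligand, was at 43.4 and 12.9 CPM (log2 ratio -1.75, -1.81 to -1.69). DNER, a transmembrane protein described as a non-canonical Notch ligand, was at 1.46 and 45.8 CPM, 31.4-fold higher in RWPE-ERG-mAKT (27.9 to 35.5), although it was counted in the turnover list. It was the 1 higher gene of that list.

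Genes for cleavage, glycosylation, the nuclear complex and turnover are named here for the size of their ratios, and most others of these lists stood closer to 0. NEURL1, a ubiquitin ligase that acts on ligands, was at 59.0 and 3.36 CPM (log2 ratio -4.13, -4.24 to -4.03). MAML2, a coactivator of the nuclear complex, was at 210 and 15.5 CPM (log2 ratio -3.76, -3.81 to -3.71), while RBPJ itself differed by a log2 ratio of -0.17. NEURL1 and MAML2 are long genes with long introns, and whether intronic reads were counted is not given in the sources used here, so its part in these values was not tested. Among genes that add sugars to the receptors, POFUT1, which puts on the O-fucose needed for ligand binding, was at 42.3 and 16.2 CPM, and LFNG, which extends it, had a log2 ratio of -1.92 (-2.20 to -1.64). Of the cleavage genes, ADAM10, the protease that makes the first cut after ligand binding, was at 81.1 and 48.3 CPM (log2 ratio -0.75), PSEN2 of the gamma-secretase had a log2 ratio of -1.38, and APH1B, another subunit, was higher at 1.09. The corepressors TLE1 (68.6 and 129 CPM) and TLE4 (15.7 and 34.3 CPM) were higher.

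**Figure D2:**
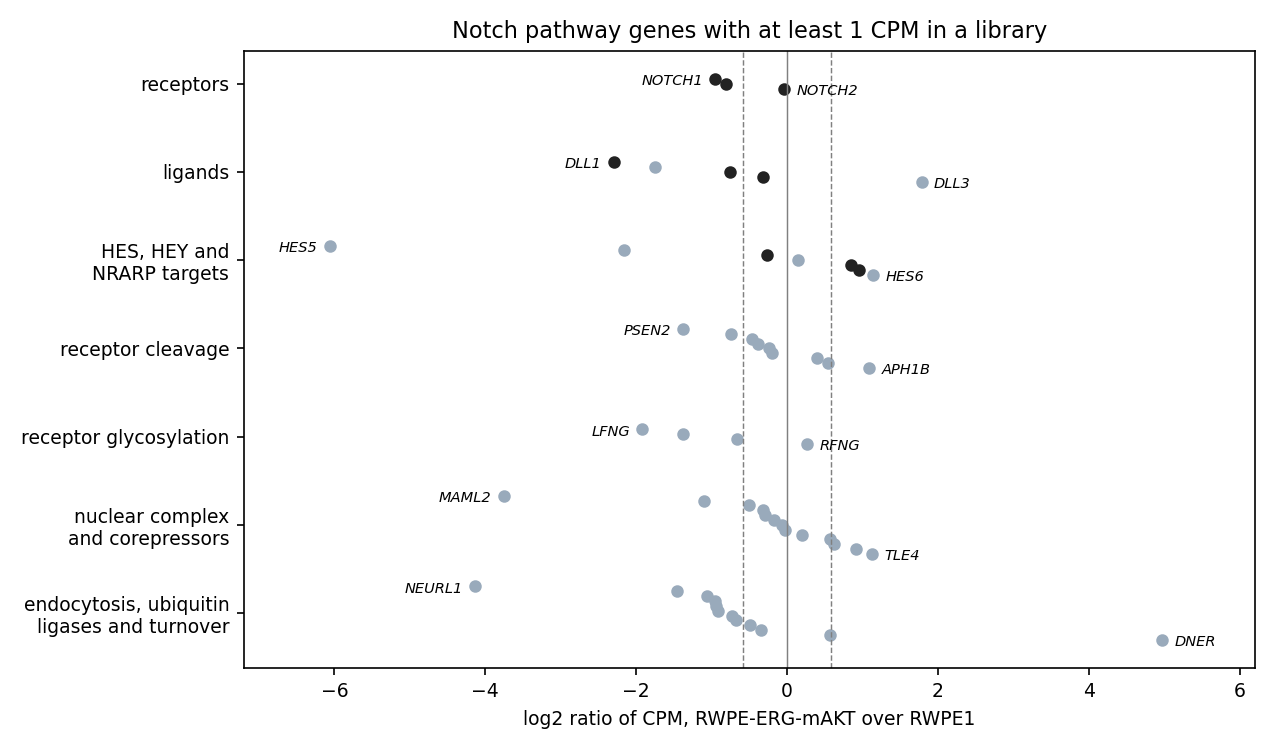
Log2 ratio of CPM, RWPE-ERG-mAKT over RWPE1, for the 53 pathway genes that reached 1 CPM, in rows by role. Dark points are the 9 measured genes of the report, grey points the others, dashed lines 1.5-fold, and the row of targets spans from HES5 at -6.06 to HES6 at 1.14.

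Because the libraries differed in depth, each kept cell was thinned to 5000 UMIs, which left out 0 cells of RWPE1 and 6 of RWPE-ERG-mAKT (9967 and 14134 cells remained). HES1 was then found in 18.5% of RWPE1 cells (17.8 to 19.3%, exact Clopper-Pearson interval) and in 31.5% of RWPE-ERG-mAKT cells (30.7 to 32.3%). HES4 was found in 22.5% (21.7 to 23.4%) and 35.4% (34.6 to 36.2%). Thus the higher level of both genes came with more cells that held a molecule. At counts this low the share largely follows the mean, so it does not separate more expressing cells from more RNA per cell.

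Cells with at least 2 thinned UMIs of HES1 made up 3.77% and 8.32%, and of HES4 4.06% and 9.94%. HES1 had a variance over mean of 1.45 (RWPE1) and 1.38 (RWPE-ERG-mAKT), and HES4 of 1.23 and 1.40, where random counting in like cells gives about 1. The other 7 genes above 1 CPM lay between 1.01 and 1.20. This measure grows with a gene's mean, so it does not rank genes of different level, and JAG1 (1.20 in RWPE1) lay near HES4 there.

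NOTCH1 was found in 23.9% (23.0 to 24.7%) of RWPE1 cells and 12.4% (11.9 to 13.0%) of RWPE-ERG-mAKT cells, and NOTCH2 in 13.8% of both. NOTCH3 was found in 2.37% and 1.28%. The share of cells thus followed the level for each receptor, as it largely does at counts this low. JAG1 was found in 12.8% and 10.5% of cells, JAG2 in 10.3% and 6.66%, and DLL1 in 2.65% and 0.587%. NRARP was found in 8.03% and 6.24% of cells, and HEY1 in 8 cells of each library (0.0803% and 0.0566%).

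For comparison, the endothelial, immune, fibroblast and choroid plexus markers had median shares of at most 0.0955% at the same depth. The highest of each library were DCN at 7.70% of RWPE-ERG-mAKT cells and CD68 at 4.13% of RWPE1 cells. Genes that a culture does not express cannot measure free RNA of genes it does express, so these shares set no background level. HEY1 lay above the medians of RWPE1 (0.0803% against at most 0.0401%) and within those of RWPE-ERG-mAKT (0.0566% against at most 0.0955%). DLL1 and NOTCH3 lay below CD68 and above the medians. Without thinning the shares were larger and unequal in depth: 41.8% and 60.3% for HES1, 54.5% and 64.9% for HES4, 56.8% and 32.2% for NOTCH1, 41.5% and 35.5% for NOTCH2, 7.46% and 3.95% for NOTCH3, 33.9% and 26.0% for JAG1, 32.2% and 17.6% for JAG2, 9.50% and 1.68% for DLL1, 25.5% and 18.4% for NRARP, and 0.41% and 0.23% for HEY1.

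Coexpression of the receptors, ligands and targets within cells was weak. Of the genes, 7 were found in at least 2% of thinned cells of both libraries, which gave 21 pairs, and the share of cells with both genes was divided by the product of the 2 single shares. This ratio ran from 0.79 to 1.27 in RWPE1 and from 0.71 up to the 1.25 of NOTCH1 with JAG2 in RWPE-ERG-mAKT, and Pearson's r of the log counts ran from -0.03 to 0.05 and from -0.02 to 0.05. These are descriptions across cells of 1 library at 1 depth. Counting noise at such low counts holds r near 0, so r does not measure how tightly the genes are linked.

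HES4 and NRARP were the 1 pair whose interval lay above 1 in both libraries. They were found together in 228 RWPE1 cells, 2.29% against a product of 1.81%, a ratio of 1.27 (1.11 to 1.44). In RWPE-ERG-mAKT they were found together in 377 cells, 2.67% against 2.21%, a ratio of 1.21 (1.09 to 1.33). In RWPE-ERG-mAKT this call was lost at 2000 UMIs (1.17, 0.92 to 1.46) and had a lower limit at 1 with seed 2 (1.11). HES1 did not share this: its ratio with NRARP was 1.05 (0.89 to 1.23) and 1.07 (0.95 to 1.20), and with HES4 it was 1.08 (0.98 to 1.18) and 1.00 (0.96 to 1.05). JAG1 and HES1 were found together more often than the product in RWPE1, at 1.22 (1.08 to 1.36), while the ratio in RWPE-ERG-mAKT was 1.06 (0.97 to 1.15). No pair had an interval below 1 in both libraries.

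**Figure D3:**
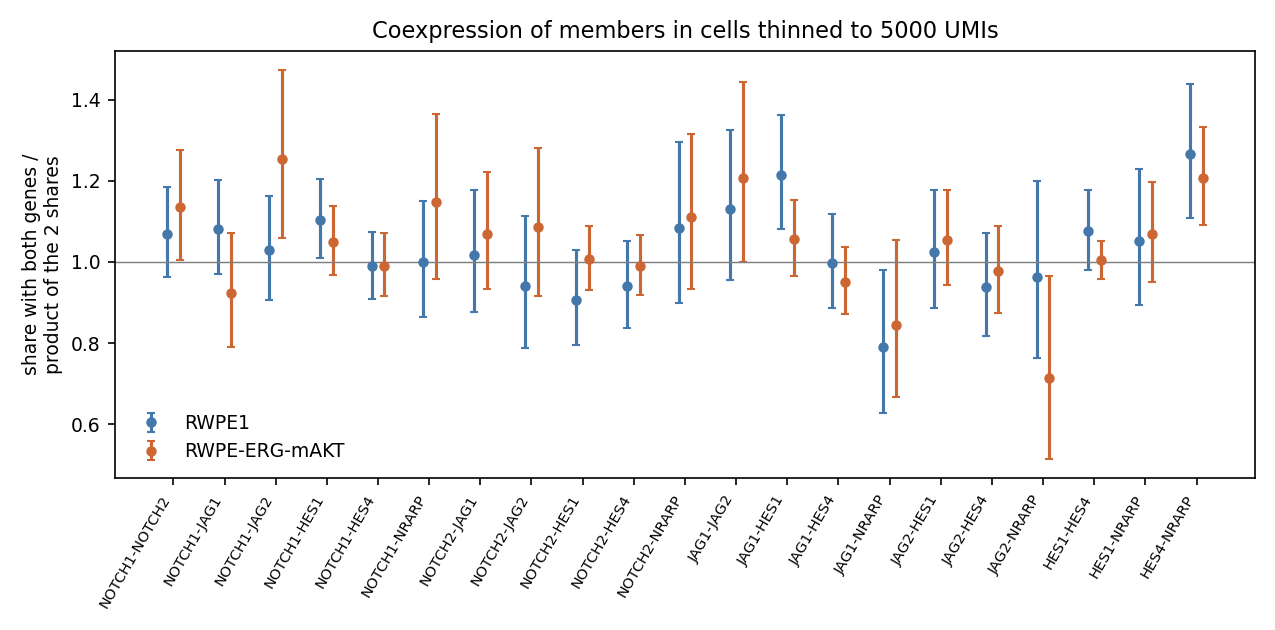
Share of cells with both genes of a pair divided by the product of the 2 single shares, for 21 pairs in RWPE1 (blue, 9967 cells) and RWPE-ERG-mAKT (orange, 14134 cells), with 95% counting intervals. Most pairs lie near 1, and HES4-NRARP at the right lies above 1 in both libraries (1.27 and 1.21).

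Receptors and ligands were spread over cells almost as if drawn apart. A receptor (NOTCH1, NOTCH2 or NOTCH3) was found in 35.4% of RWPE1 cells and 25.2% of RWPE-ERG-mAKT cells, and a ligand (JAG1, JAG2 or DLL1) in 23.6% and 16.7%. Both were found in 8.49% (7.95 to 9.05%) of RWPE1 cells, against a product of 8.36%, and in 4.52% (4.18 to 4.88%) of RWPE-ERG-mAKT cells, against 4.21%. A cell without a UMI at this depth can still hold the RNA, so these shares do not sort cells into senders and receivers.

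HES1 stood at 52.5 CPM (45.8 to 59.9) in RWPE1 cells with both a receptor and a ligand and at 42.8 CPM (40.3 to 45.5) in cells with neither. In RWPE-ERG-mAKT the values were 95.8 CPM (85.3 to 107) and 84.0 CPM (81.3 to 86.8). With a receptor alone or a ligand alone, HES1 was at 51.2 and 53.8 CPM in RWPE1, and at 90.1 and 90.5 CPM in RWPE-ERG-mAKT. Their intervals overlapped those of cells with both. The gaps between these groups were small beside the gap between the libraries, whose lowest group in RWPE-ERG-mAKT stood above the highest group in RWPE1. HES4 with both and with neither was at 53.7 and 55.0 CPM in RWPE1, and at 91.7 and 103 CPM in RWPE-ERG-mAKT. NRARP in RWPE-ERG-mAKT was at 10.4 CPM (8.39 to 12.8) in cells with a ligand alone and at 15.8 CPM (13.9 to 18.0) in cells with a receptor alone, and in RWPE1 at 15.3 CPM (12.6 to 18.3) and 18.6 CPM (16.4 to 21.1). With both and with neither, NRARP was at 10.6 and 13.1 CPM in RWPE-ERG-mAKT, and at 16.8 and 17.1 CPM in RWPE1.

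To see in which cells the genes stood high, cells thinned to 5000 UMIs were ranked within each library by the summed UMIs of a list of state genes, and cells in about the top 10%, ties included, were compared with the rest. Such a top group is a range of a score and not a cell type, and none of the 10 genes belongs to a list. Many cells lay at the limit where scores were low, for example 436 of the 1041 top cells for immediate early genes in RWPE1, and 58 of 1008 for G2/M genes. Each limit was set within its own library, so a top group can cover a different range of the score in the 2 libraries.

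HES1 was higher in cells rich in immediate early RNA (FOS, JUN, EGR1 and others, which respond within minutes to growth factors or stress) in both libraries. Its level was 83.8 CPM against 43.3 CPM in RWPE1, a log2 ratio of 0.95 (0.80 to 1.10), and with ERG and mAKT 142 CPM against 80.0 CPM, a log2 ratio of 0.83 (0.74 to 0.93). By the squamous differentiation score (KRT13, KRT16, IVL and others), HES1 was at 89.9 against 42.8 CPM in RWPE1 (log2 ratio 1.07, 0.92 to 1.22). With ERG and mAKT it was at 95.2 against 85.6 CPM (log2 ratio 0.15, 0.04 to 0.27). The squamous limit was 8 UMIs in RWPE1, with a median score of 2, and 28 UMIs in RWPE-ERG-mAKT, with a median of 12. These splits thus cover different ranges of the score, and the sizes of the 2 ratios cannot be compared directly. Immediate early limits also differed, at 6 and 18 UMIs. The difference between the 2 libraries was not tested.

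HES4 had another pattern, over the cell cycle scores. In the top G2/M cells it was at 34.7 CPM against 57.6 CPM in RWPE1 (log2 ratio -0.73, -0.96 to -0.51) and with ERG and mAKT at 56.2 against 105 CPM (log2 ratio -0.90, -1.04 to -0.75). In the top S phase cells it was higher, with log2 ratios of 0.30 (0.16 to 0.45) and 0.74 (0.64 to 0.83). HES1 was lower in G2/M cells of RWPE1 (log2 ratio -0.48, -0.71 to -0.26), and its log2 ratio in RWPE-ERG-mAKT was 0.01. HES4 was also lower in cells with a high basal score (KRT5, KRT14, TP63 and others), at log2 ratios of -0.73 and -0.40, where HES1 was higher, at 0.63 and 0.25.

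NRARP shared the lower level in basal cells with HES4. It gave 26 UMIs in the top basal cells of RWPE1, 5.04 CPM against 18.6 CPM elsewhere (log2 ratio -1.89, -2.51 to -1.32), and with ERG and mAKT it was at 9.07 against 13.7 CPM (log2 ratio -0.60, -0.98 to -0.23). In cells high in mesenchymal RNA (VIM, FN1, SPARC and others) it was lower as well, with log2 ratios of -0.89 (-1.33 to -0.48) and -0.91 (-1.31 to -0.53).

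JAG1 had the opposite pattern to NRARP. In the top mesenchymal cells of RWPE1 it was at 98.3 CPM against 21.9 CPM in the rest, a log2 ratio of 2.17 (2.01 to 2.33), and with ERG and mAKT at 39.8 against 21.1 CPM, a log2 ratio of 0.91 (0.73 to 1.09). The 1044 top cells of RWPE1 differed broadly, with 28.6% of all genes over 5 CPM past 1.5-fold and a median of 12684 UMIs against 17433, and how much this moved JAG1 was not tested. JAG1 was also higher in basal-high cells (log2 ratios 0.51 and 0.64) and lower in cells high in the simple epithelium keratins KRT7, KRT8, KRT18 and KRT19 (-0.95 and -0.84). The log2 ratio of JAG2 by the mesenchymal score had an interval that reached 0 in RWPE1 and was 0.36 (0.09 to 0.62) in RWPE-ERG-mAKT.

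NOTCH3 was higher in the top squamous cells of both libraries. It was at 18.3 CPM (93 UMIs) against 3.62 CPM in RWPE1, a log2 ratio of 2.34 (1.96 to 2.72), and with ERG and mAKT at 5.85 CPM (43 UMIs) against 2.21 CPM, a log2 ratio of 1.40 (0.88 to 1.91). In the top mesenchymal cells it gave 11 UMIs in RWPE1 and 3 with ERG and mAKT, log2 ratios of -1.38 (-2.40 to -0.51) and -2.95 (-5.24 to -1.38). NOTCH2 was higher in G2/M cells, at 53.0 against 27.9 CPM in RWPE1 (log2 ratio 0.93, 0.73 to 1.12) and with ERG and mAKT 38.2 against 28.8 CPM (0.41, 0.22 to 0.59). NOTCH1 was higher in the top squamous cells of RWPE-ERG-mAKT, at 40.3 against 26.6 CPM (log2 ratio 0.60, 0.42 to 0.78), and had a log2 ratio of 0.08 (-0.10 to 0.25) in RWPE1. NOTCH1 was lower in S phase cells, with log2 ratios of -0.61 (-0.79 to -0.43) and -0.29 (-0.53 to -0.06). The 3 receptors thus did not share 1 pattern over the scores.

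**Figure D4:**
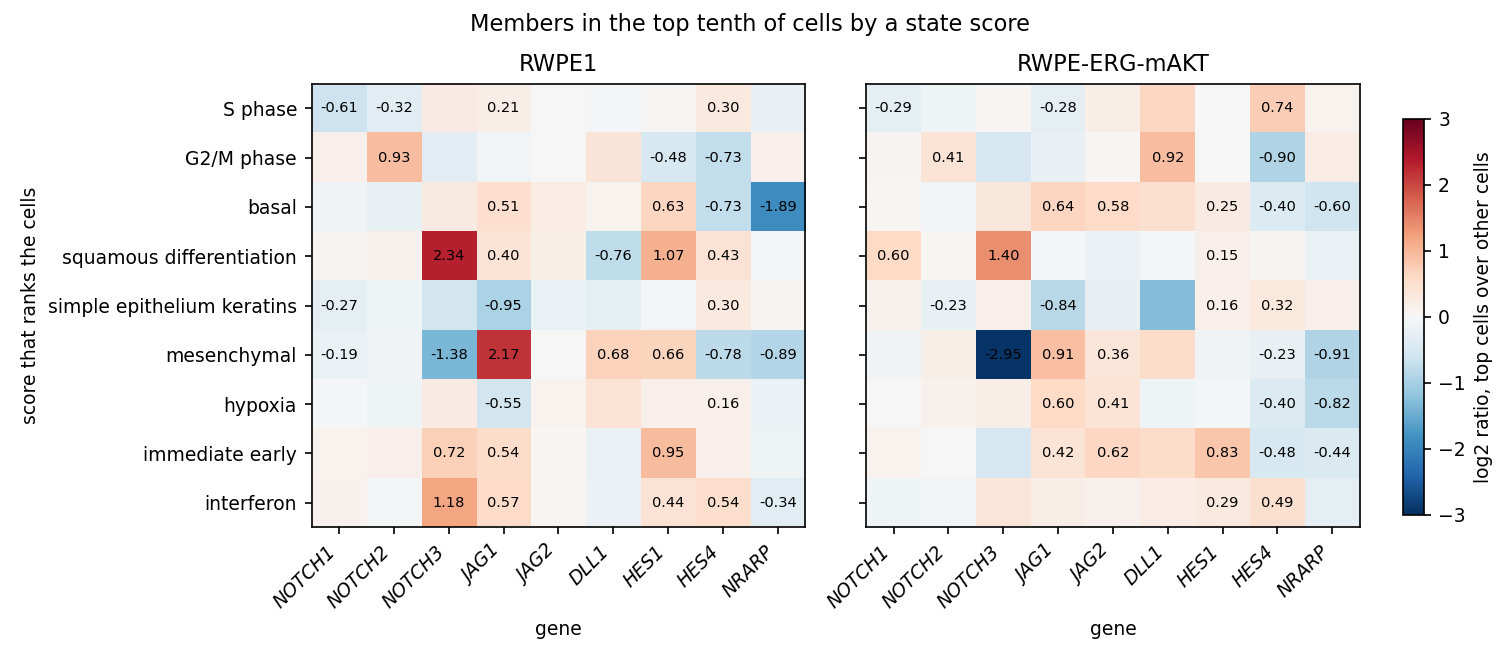
Log2 ratio of each gene's CPM in about the top 10% of cells by a state score over the other cells, in RWPE1 (left) and RWPE-ERG-mAKT (right). Ties at the limit made some top groups larger, for example 1555 of 9967 cells by the hypoxia score in RWPE1. Red is higher and blue lower in the top cells, numbers are printed where the 95% counting interval leaves out 0, and the highest values are NOTCH3 by squamous differentiation and JAG1 by the mesenchymal score in RWPE1 (2.34 and 2.17).

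ERG RNA in a cell came with little difference within RWPE-ERG-mAKT. HES1 was at 78.8 CPM in the 1320 cells with an ERG UMI and at 87.4 CPM in the others, a log2 ratio of -0.15 (-0.28 to -0.02), and the other genes above 1 CPM had intervals that reached 0. A cell without an ERG UMI at 5000 UMIs may still express it.

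The genes whose counts were most like each member's from cell to cell were named among 8019 genes found in at least 5% of cells of both libraries, by the mean of Pearson's r over the 2 libraries. All values were low: the highest was 0.16, between JAG1 and VIM, a filament protein of mesenchymal cells, with an r of 0.24 within RWPE1 and 0.08 within RWPE-ERG-mAKT. SERPINE2, FN1, LGALS1 and PMEPA1 followed for JAG1, and KRT19 was lowest at -0.13. HES1 was most like HSPB1, ID1, IER2, KRT16 and FXYD3 (0.10 to 0.08), and HES4 most like ISG15, KRT19, TMEM265, IFIT1 and SLPI (0.11 to 0.07), with CCNB1 lowest at -0.10. NOTCH1 was most like CDKN1A (0.10), MDM2, DSP, AC093866.1 and FXYD3, and NOTCH2 most like the mitotic genes CENPF (0.07), TOP2A, TPX2, AURKA and ASPM. Such correlations in sparse counts are too weak to be a finding by themselves.

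The difference between the libraries held in cells of like depth for HES4 and less so for HES1. In kept cells with up to 3500 detected genes (786 of RWPE1 and 4258 of RWPE-ERG-mAKT), HES1 was at 73.2 and 92.6 CPM, a log2 ratio of 0.34 (0.21 to 0.47). In cells with over 5500 genes it was at 40.0 and 78.1 CPM, a log2 ratio of 0.97 (0.90 to 1.03). HES1 was thus higher in the shallower cells of RWPE1, while HES4 kept log2 ratios of 0.85 to 0.91 over the 4 ranges of detected genes. NOTCH1 ran from -1.23 in the shallowest range to -0.81 in the deepest, and JAG1 from -0.70 to -0.19. NOTCH2, at -0.04 over all kept cells, lay between 0.04 and 0.19, with an interval that reached 0 in every range.

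The mitochondrial share, which differed between the libraries, moved some ratios more. NOTCH1 had a log2 ratio of -0.97 (-1.16 to -0.77) in cells under 2.5%, -0.77 (-0.83 to -0.71) from 2.5 to 5% and -0.19 (-0.34 to -0.05) from 5 to 7.5%, where RWPE-ERG-mAKT had 526 cells and RWPE1 6378. HES4 had log2 ratios of 0.21 (0.08 to 0.35), 0.75 and 0.83 over the same ranges, the lowest with 195 RWPE1 cells, and HES1 of 0.44 (0.27 to 0.61), 0.91 and 1.14. NRARP had -0.63 (-0.93 to -0.32), -0.23 and 0.07 (-0.18 to 0.31), so its small difference did not hold in the last range. NOTCH2 had 0.28 (0.0048 to 0.56), -0.02 (-0.09 to 0.05) and 0.35 (0.18 to 0.51), so its level ratio over all kept cells did not hold in each range. HES1, HES4 and NOTCH1 kept their direction in every range of depth and of mitochondrial share, with sizes that depended on the range. NOTCH3 had log2 ratios of -0.96 (-1.58 to -0.27), -0.53 (-0.75 to -0.31) and -0.15 (-0.64 to 0.31) over the mitochondrial ranges, so it passed 1.5-fold in 1 of 3, whereas JAG2 and DLL1 passed it in each. The part of cell quality in these ratios was not tested.

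**Figure D5:**
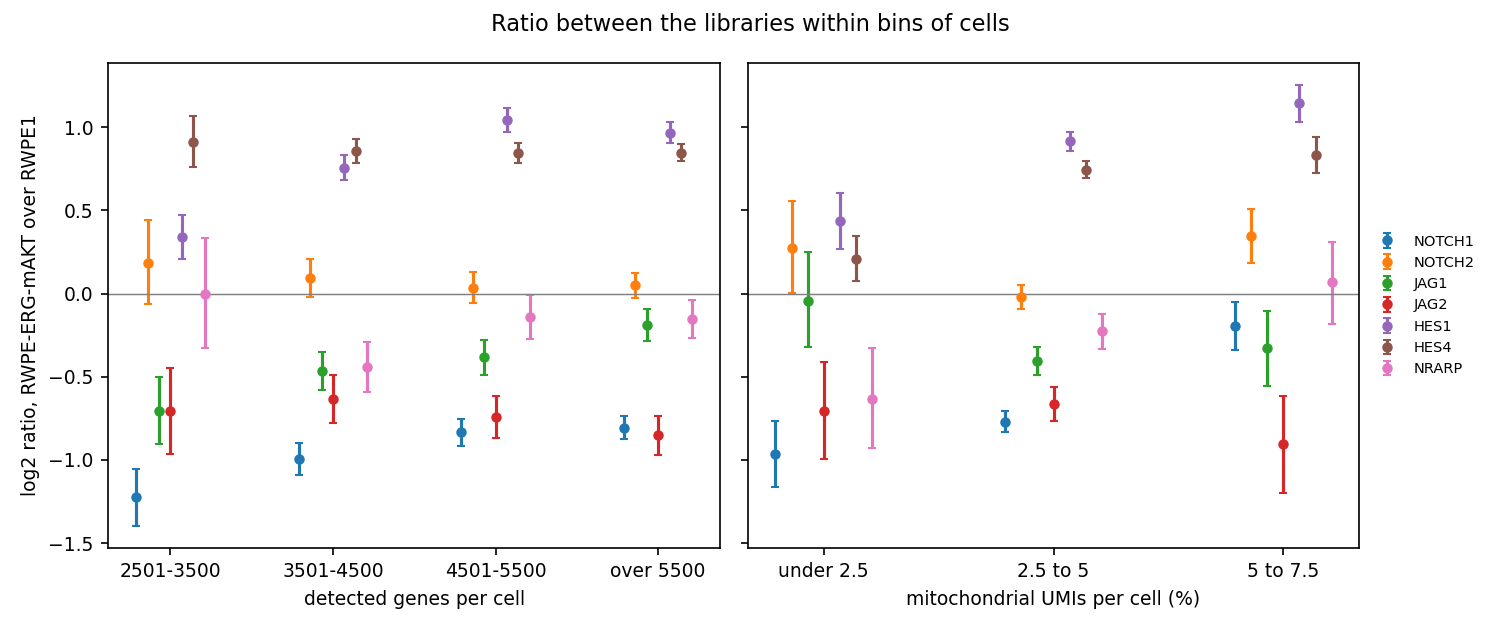
Log2 ratio of CPM, RWPE-ERG-mAKT over RWPE1, within ranges of detected genes per cell (left) and of mitochondrial UMIs per cell in percent (right), with 95% counting intervals. HES1 and HES4 stay above 0 and NOTCH1 below 0 in every range, and NOTCH1 comes nearest to 0 (-0.19) in cells with 5 to 7.5% mitochondrial UMIs.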

How the data were processed

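Single-cell RNA was measured with 10x Genomics 3' v3.1 libraries of RWPE1 and RWPE-ERG-mAKT, 1 per condition. The authors made the deposited raw UMI counts per gene and barcode with Cell Ranger 7.1.0 on hg38. The intron and strand settings were not given in the sources used here. The paper states limits of 200 to 2500 detected genes, which most cells here exceed, so cells above them gave the main values. Its wording on mitochondrial share has cells under 7.5% removed; here those cells were kept. Cells with 200 to 2500 genes and cells with 7.5% or more were tried as separate alternatives, and both limits together were not run.

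CPM is a gene's UMIs over all UMIs of the kept cells. Ratios of CPM carry exact conditional intervals of a ratio of Poisson counts and shares exact Clopper-Pearson intervals, at 95%, and neither covers variation between cultures. A call was a difference over 1.5-fold among genes that reached 1 CPM in either library. Cells were thinned without replacement with seed 1. No doublets were called, and the 10% of cells with the most UMIs were left out as an alternative. Other alternatives changed the cell set, scaling, minimum, fold, thinning depth, seed and score limit. The tools were scipy 1.17.1, numpy 2.4.6, pandas 2.3.3 and matplotlib 3.10.9 in Python 3.11.15, and the scripts were tested on simulated counts. In the 3' assay 1 molecule gives 1 tag whatever the transcript's length, so CPM was compared between genes without a length term, although capture can differ by gene.

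The genes, lists and alternatives were chosen with earlier results of these data known. Named pathway genes are up to 4 per role with the largest log2 ratio, and the score lists hold 4 to 20 genes each. DTX4, POGLUT1, RFNG and FURIN, which this rule also names, had log2 ratios of -1.06, -0.66, 0.27 and 0.55, and 1 gene it names is not reported here. Promoters came from RefSeq (GRCh38.p14) for 8 of the 10 genes.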

Additional observations from a re-analysis of the deposited data

Results flagged for a closer look

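In 3 cases a gene stood higher in the cells at the top of a state score in 1 library and lower in the other, with both counting intervals on their own side of 0. The difference between the libraries was not tested in any of them, and each library is 1 sample. JAG1 in the top cells by hypoxia genes (VEGFA, ADM, NDRG1 and others) had a log2 ratio of -0.548 in RWPE1 (21.5 against 31.4 CPM) and of 0.602 with ERG and mAKT (33.4 against 22.0 CPM), and it kept both signs at the wider score limit, at 10000 UMIs and with another seed. JAG1 in the top cells by S phase genes stood at 0.207 in RWPE1 (interval from 0.0017) and -0.278 in RWPE-ERG-mAKT (interval up to -0.026), so both came close to 0. HES4 by the hypoxia score had a log2 ratio of 0.157 for RWPE1 and -0.399 for RWPE-ERG-mAKT, and the RWPE1 value was 0.01 with another seed and -0.03 at 10000 UMIs. The score limit for hypoxia was 7 UMIs in RWPE1, where 719 of 1555 top cells lay at it, and 15 UMIs in RWPE-ERG-mAKT, where 349 of 1571 did.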

How the results depend on the processing

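No paired analysis was possible because each condition was 1 library, numbered only in accession order. Of the counts and medians recomputed under other settings, 54 stayed close to the value reported and 15 moved. Genes of the 10 over the limit were 1 higher in cells with 200 to 2500 genes and 0 higher and 1 lower at 2-fold, and 2 were lower in cells with 7.5% or more mitochondrial UMIs and at a minimum of 10 CPM. Pathway genes were 5 higher and 12 lower at 2-fold. The median log2 ratio of the genes was -0.60 in cells with 200 to 2500 genes, -0.0068 at 7.5% or more mitochondrial UMIs, -0.16 under median-of-ratios scaling and -0.25 at 10 CPM. That scaling took -0.14 off every log2 ratio and moved the median of all genes from -0.12 to 0.02. Pairs above the product in both libraries numbered 0 at 2000 UMIs, 2 at 10000 UMIs and 2 with seed 2, and 1 pair lay below at 10000 UMIs. Of the single values, 284 stayed, 79 moved and 4 reversed: JAG1 at 7.5% or more mitochondrial UMIs (0.38), JAG2 with NRARP in RWPE-ERG-mAKT at 2000 UMIs (1.03), and in RWPE1 at 10000 UMIs HES4 by hypoxia (-0.034) and NRARP by interferon (0.0062). The fold of 2 and the higher minimum call fewer genes by construction; otherwise the cause was not tested. Counting error limits HEY1 (41 and 33 UMIs) and the 107 RWPE-ERG-mAKT cells with 7.5% or more mitochondrial UMIs, and no value has a culture replicate.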

Other observations

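Cells outside the kept set gave other values for some of the genes. In cells with 200 to 2500 detected genes (362 of RWPE1 and 2775 of RWPE-ERG-mAKT), HES1 was at 96.2 CPM (84 UMIs) and 109 CPM (1150 UMIs), a log2 ratio of 0.18 (-0.14 to 0.52), whereas HES4 was at 61.9 and 106 CPM, a log2 ratio of 0.77 (0.38 to 1.20). NOTCH1 was at 64.2 and 20.3 CPM there, a log2 ratio of -1.66 (-2.09 to -1.21). In cells with 7.5% or more mitochondrial UMIs (1575 and 107 cells), NOTCH1 was at 88.9 and 88.5 CPM, a log2 ratio of -0.01 (-0.32 to 0.29), and NOTCH2 was at 38.5 and 73.0 CPM, a log2 ratio of 0.92 (0.57 to 1.25).

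The top cells by interferon-response RNA (IFIT1, MX1, ISG15 and others) held more of both HES genes. Their score limit was only 2 UMIs in RWPE1, where 539 of 1427 top cells lay at it. In RWPE-ERG-mAKT it was 7 UMIs, where 294 of 1539 did. HES4 was at 75.4 against 52.0 CPM in RWPE1 (log2 ratio 0.54, 0.40 to 0.67) and with ERG and mAKT at 133 against 95.3 CPM (log2 ratio 0.49, 0.39 to 0.58), and HES1 had log2 ratios of 0.44 (0.29 to 0.59) and 0.29 (0.18 to 0.39). ISG15, itself a gene of that score, is the neighbour of HES4, with 965 bases between them and opposite strands, and was at 137 and 258 CPM in the libraries (log2 ratio 0.91, 0.89 to 0.93). NOTCH3 was also higher in the top interferon cells of RWPE1, at 9.81 against 4.33 CPM (log2 ratio 1.18, 0.76 to 1.58), with 0.37 (-0.30 to 0.99) in RWPE-ERG-mAKT.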
